A study of Mus musculus with 2 samples.

Results

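Pax6, Six3 and Rax are homeobox genes of the eye field, the patch of anterior neural plate that gives rise to the eyes. These 3 were chosen by name from the 8251 named genes on the array. Every probe set whose only gene symbol in the platform annotation was 1 of the 3 was taken. Pax6 and Rax were each measured by 1 probe set and Six3 by 2, together 4 of the array's 12488; the Six3 probe set with the higher mean signal is called the first.

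The samples were E14.5 embryonic cerebral cortex of NMRI mice, either wild type or Pax6-/-, and the study set out to find genes that act downstream of Pax6. Total RNA was copied into biotinylated cRNA and hybridised to Affymetrix arrays, and the deposited values are MAS5 signals, an intensity per probe set on a linear scale. There was 1 array per genotype, although the design text mentions 3 embryos of each, and whether their RNA was pooled is not stated in the sources used here. The labels do not name the mutant allele.

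Pax6 encodes a transcription factor with a paired domain and a homeodomain. It is required for eye formation and, in the embryonic cortex, is made by radial glia, the progenitors that line the ventricle. Six3 belongs to the sine oculis-related homeodomain family, represses Wnt genes in the anterior neural plate with Groucho-type corepressors, and later marks ventral forebrain and striatal precursors. Rax (also called Rx) is a paired-like homeobox gene of the eye field, the retinal progenitors and the ventral diencephalon. In the eye these genes act in a network of mutual regulation, whereas in the dorsal cortex Pax6 is the member known for strong expression.

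Because Pax6 is the gene altered in the mutant and Six3 has been studied as its partner in the eye, the 250 bases before their RefSeq transcription starts (assembly GRCm38.p6, plus strand) are shown 5′ to 3′, with capitals marking matches to the motifs named below. Pax6 lies on chromosome 2 at 105668896 to 105698410, and the table holds starts 13567 bases apart. The Six3 window lies inside the annotated span of the gene, at 85613608 to 85626191 on chromosome 17.
Pax6, upstream start, chr2:105668646-105668895: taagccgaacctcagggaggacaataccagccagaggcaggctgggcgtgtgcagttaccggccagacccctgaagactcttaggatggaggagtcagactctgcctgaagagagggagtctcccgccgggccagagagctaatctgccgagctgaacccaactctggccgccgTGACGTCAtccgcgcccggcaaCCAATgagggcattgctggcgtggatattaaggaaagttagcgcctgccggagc
Pax6, downstream start, chr2:105682213-105682462: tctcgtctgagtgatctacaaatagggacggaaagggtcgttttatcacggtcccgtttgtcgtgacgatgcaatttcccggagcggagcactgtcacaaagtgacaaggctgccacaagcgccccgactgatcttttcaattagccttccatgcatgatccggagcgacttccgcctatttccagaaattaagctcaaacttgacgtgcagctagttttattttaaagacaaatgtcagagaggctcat
Six3, chr17:85620584-85620833: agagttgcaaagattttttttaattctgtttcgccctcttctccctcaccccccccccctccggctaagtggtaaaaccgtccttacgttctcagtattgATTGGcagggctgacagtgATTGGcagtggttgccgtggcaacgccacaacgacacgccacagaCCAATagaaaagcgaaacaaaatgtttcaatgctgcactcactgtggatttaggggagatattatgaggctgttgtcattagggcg

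Both strands were searched for each motif. The CCAAT box (CCAAT, or ATTGG on the other strand) occurred 3 times in the Six3 window and 1 time before the upstream Pax6 start, and 33.8% of all 32851 windows of this length held it. The upstream Pax6 window also held the palindromic cAMP response element TGACGTCA, which 1.55% of all windows held. None of the 3 windows held TATAAA (12.4% of all windows), the homeodomain palindrome TAATTA (4.84%), the palindrome of TAAT and ATTA 3 bases apart that paired-class homeodomain dimers bind (0.463%) or TGATAC, the core bound by Six3-type homeodomains (4.64%). The GC content was 60.8% before the upstream Pax6 start, 47.6% before the downstream start and 48.8% before Six3, against a median of 52.4% over all windows. These matches describe the letters in the windows, and the arrays do not measure binding there.

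Pax6 and Rax signals were lower in the mutant, and those of both Six3 probe sets were higher, from low wild type values. With 1 array per genotype there is no replicate check, no test between genotypes is possible and no p-value is given. Each difference is instead set beside a technical spread, which contains nothing of the variation between embryos. It is an SD divided by the square root of 2. The SD is that of the difference between the log2 ratios (mutant minus wild type) of a gene's 2 brightest probe sets. In a bulk sample, fewer cells of a type and less RNA per cell cannot be told apart.

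The Pax6 signal on the wild type array was 1169, and the Pax6-/- array gave 447. This is a plain log2 ratio of −1.39, or 2.62-fold lower in the mutant. Log2 ratios below are, unless called plain, differences of log2(signal + 81.5), centred on the median of the probe sets above a signal filter. The pseudocount of 81.5 is the 25th percentile of all signals, and it shrinks the ratios of dim probe sets. On this scale Pax6 was at −1.29, against a technical spread of 0.54 at its signal level. Pax6 stood at percentile 86.8 of the named probe sets in wild type and at percentile 62.8 on the mutant array, where its signal remained in the upper part of the range. The labels do not say which part of the gene is altered, so this probe set may lie outside it, and the remaining signal is no measure of functional Pax6.

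The Rax signal was 387 with the wild type sample and 96.4 with the mutant. The plain log2 ratio was −2.01, 4.02-fold lower, and with the pseudocount it was −1.44, against a spread of 0.72. Rax is not known as a marker of dorsal cortex, and its wild type signal stood at percentile 61.2. In the mutant it stood at percentile 25.5, below the filter level of about 166, so Rax passed the filter, which uses the mean of both arrays, only through its wild type signal.

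The first Six3 probe set gave 21.0 on the wild type array and 151 with the mutant, a plain log2 ratio of 2.85 and a log2 ratio of 1.13 with the pseudocount. The second had signals of 26.7 and 56.8, with a plain log2 ratio of 1.09 and a log2 ratio of 0.31. Both lay on the same side and were 0.83 apart, less than the SD of 1.02 for such differences between probe sets of a gene below the filter, which gives a technical spread of 0.72 for each. The wild type signals stood at percentiles 6.89 and 9.13, the mutant signals at percentiles 34.5 and 15.2. Neither Six3 probe set passed the signal filter, and the mean of their log2 ratios was 0.72.

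**Figure D1:**
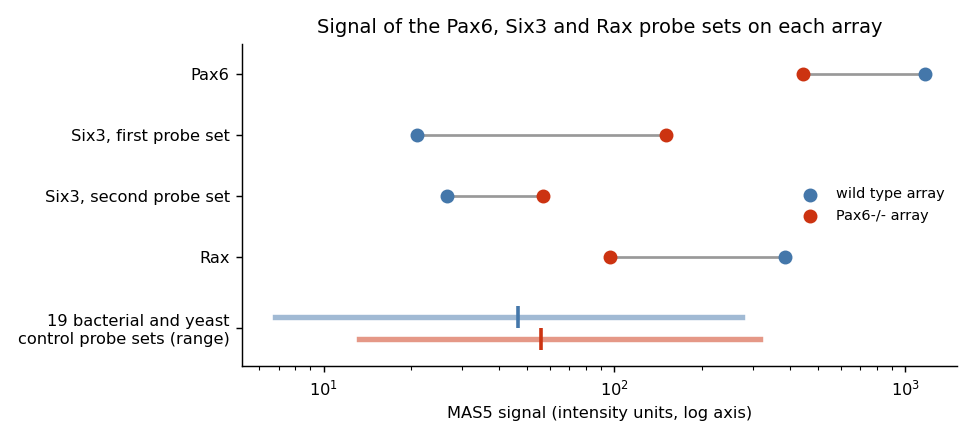
MAS5 signals (log axis) of the 4 probe sets on the wild type and Pax6-/- arrays, 1 array each, above the range and median of 19 bacterial and yeast control probe sets. The Pax6 signals, 1169 and 447, lie to the right of both control ranges, the Six3 signals lie inside them, and Rax passes from 387, outside, to 96.4, inside.

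How far these signals stood above non-specific hybridisation was read from 19 control probe sets for bacterial and yeast transcripts (the dap, lys, phe, thr and trp genes and 4 yeast genes), chosen after their values were seen. The labels do not say whether such transcripts were added to the samples. In wild type their signals ran from 6.80 to 275, with a median of 46.5. In the mutant they ran from 13.2 to 316, with a median of 56.1. Pax6 exceeded all 19 on both arrays. Rax exceeded all 19 in wild type and 13 of 19 in the mutant. The first Six3 probe set exceeded 4 in wild type and 15 in the mutant, the second 8 and 10, so all Six3 signals lay within the range of transcripts that mouse cortex does not make. The log2 ratios of the controls themselves ran from −0.80 to 1.47, and 1 of 19 was past 2-fold, on the higher side. The Six3 ratio of 1.13 lay inside that range, and the ratios of Pax6 and Rax lay below it.

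Among the 6615 named probe sets above the filter, 5.65% were at least 2-fold lower in the mutant, and 5.32% were past 2-fold in the other direction. Pax6 and Rax were both among the former. A ratio lower than that of Pax6 was seen for 3.05% of these probe sets and lower than that of Rax for 1.90%. Rax is in this set only through its wild type signal, so no weight is put on its rank. The share of large ratios differed with the signal level, so each probe set was also read against the 1083 nearest in mean log2 signal. At the level of Pax6, 3.14% of them were at least 2-fold lower, and at the level of Rax 11.9% were. At the level of the first Six3 probe set 9.60% were at least 2-fold higher, and at that of the second 2.59%. Of all named probe sets below the filter, 9.65% were past 2-fold on the higher side and 5.33% on the lower side. A 2-fold lower signal was thus less frequent at the level of Pax6 than at that of Rax, the dimmer gene.

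**Figure D2:**
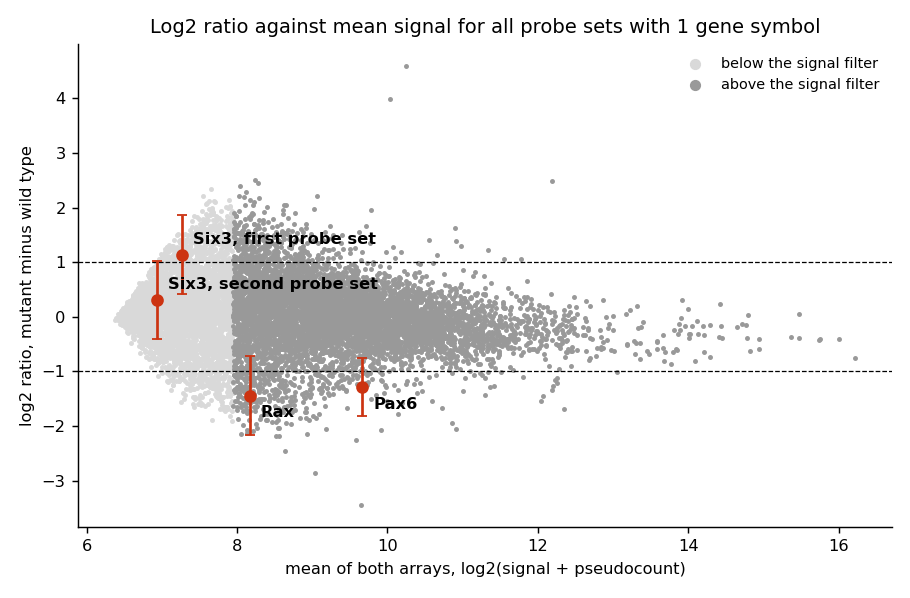
Log2 ratio (mutant minus wild type) against the mean log2(signal + pseudocount) of both arrays for every probe set with 1 gene symbol, with Pax6, Rax and Six3 in red; bars are plus and minus 1 technical spread and dashed lines mark 2-fold. Pax6, at −1.29, sits where the cloud is narrow. Rax, at −1.44, and the first Six3 probe set, at 1.13, sit in its wide, dim part. The second Six3 probe set, at 0.31, is dimmer still, where 2.59% of the nearest probe sets were at least 2-fold higher.

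The Pax6 ratio depended little on scaling and ran from −1.44 with no pseudocount to −1.05 with a pseudocount at the 50th percentile, past 2-fold throughout. Rax ran from −2.06 to −0.90 and was short of 2-fold with the larger pseudocount. The first Six3 probe set ran from 0.51 to 2.80 and the second from 0.11 to 1.04. The Six3 direction was kept in these settings, but its size was set mostly by the pseudocount, since the wild type signals of 21.0 and 26.7 lay below 81.5.

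**Figure D3:**
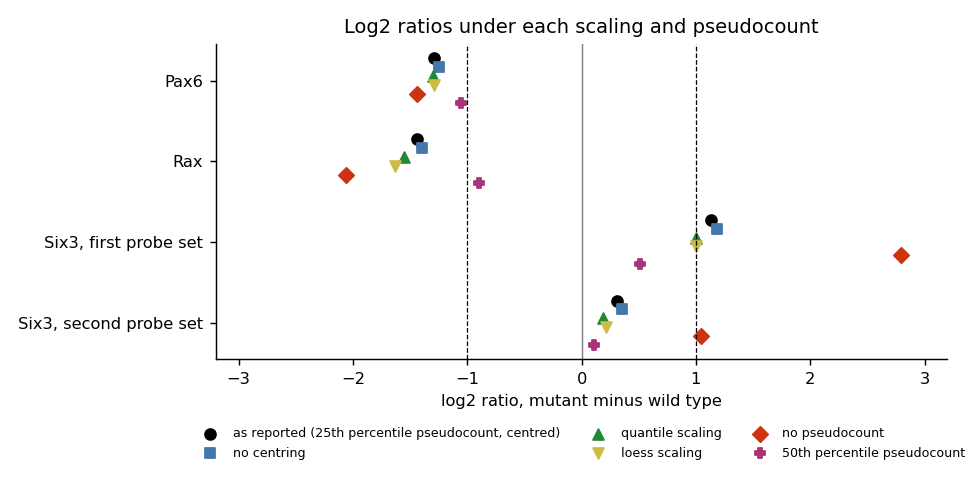
Log2 ratios of the 4 probe sets as reported and under 5 other choices of centring, scaling and pseudocount; dashed lines mark 2-fold. Pax6 stays between −1.44 and −1.05, Rax reaches −0.90 with the larger pseudocount, and the first Six3 probe set spreads from 0.51 to 2.80.

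The genes with the most similar pair of log2 values over these 2 arrays were, for Pax6, the Notch ligand gene Dll1 at a distance of 0.08 log2 units (signals of 1174 and 477), Sema6c and Cd151. For Rax they were Ufc1, Slc9a3r2 and Ebi3, and for the first Six3 probe set Kcnj1, Kcnab1 and Ptgdr, whose ratios were 1.13, 1.14 and 1.13. Likeness over 2 values ranks genes by signal and ratio alone.

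The Pax-Six-Eya-Dach genes encode the paired-box and sine oculis-related transcription factors and the coactivators that work with them in eye development. Of 21 listed, 18 were on the array and 11 had a probe set above the filter, of which 5 were higher and 6 lower in the mutant. Past 2-fold, 2 were higher and 3 lower, where 5.05% and 5.48% of all 5587 genes above the filter lay on those sides and 48.4% were higher by any amount. Of those 5, Pax3, Eya2 and Eya3 had 1 signal below the filter level and so passed only through the array where they were high, and no weight is put on the count. The median was −0.12, against −0.02 for all these genes, and 0.10 when the probe sets of a gene were averaged. Eya3 and then Pax6 had the lowest ratios among them.

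Among the other Pax genes, Pax3, a factor of dorsal neural tube and neural crest, was at −1.12, with signals of 328 and 113. Pax1, a gene of the sclerotome, was at 0.94, Pax4 at −0.28 and Pax5 at 0.10, with its other probe set at 0.32. Pax2, which marks the optic stalk, had signals of 57.8 and 64.7, below the filter. Pax8 (76.2 and 77.4) and Pax9 (67.5 and 22.5) were also below it.

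Among the relatives of Six3, Six2 was at −0.91, with signals of 392 and 178. Six4 had 3 probe sets, at 1.19, 0.74 and −0.14, of which the first alone (179 and 532) passed the filter. Six6, the close eye-field relative of Six3, had signals of 19.6 and 29.5 and a log2 ratio of 0.09, and Six5 had 56.7 and 47.8. Of the Eya genes, which encode phosphatase coactivators of Six3-related proteins, Eya2 was at 1.18 (143 and 446) and Eya3 at −1.31 (417 and 126), while Eya1 was at 0.29, with its other probe set at 0.06. Eya4 was below the filter, with signals of 2.57 and 49.8. The corepressor gene Dach1 was at −0.12, and its other probe set at 0.79. These families thus lay on both sides of 0, and Six4 and Dach1 had probe sets of either sign.

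**Figure D4:**
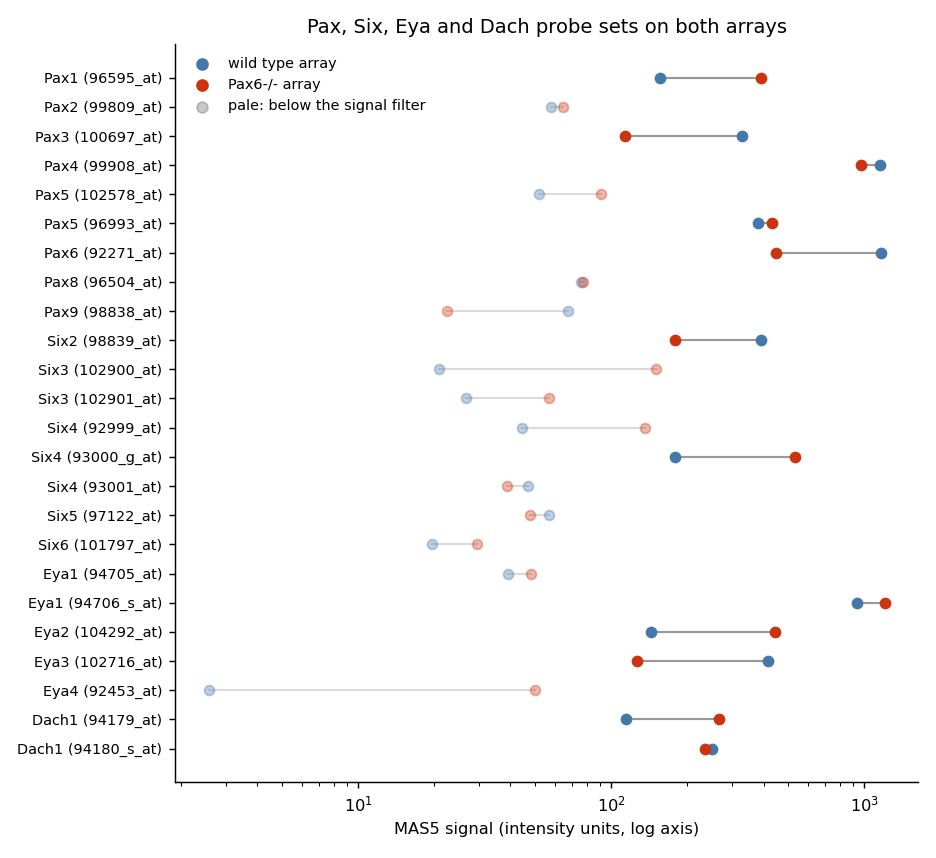
MAS5 signals (log axis) of the 24 Pax-Six-Eya-Dach probe sets on the wild type and Pax6-/- arrays; pale symbols are probe sets below the signal filter. Pax6 spans 1169 to 447, both Six3 probe sets are pale, and the longer lines point in either direction.

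The eye-field and optic vesicle factors followed no common direction. Of 22 listed, 15 were on the array and 6 passed the filter. Of these 6, 3 were higher, where 48.4% of all genes were, and 3 lower. The lower ones were Rax, Pax6 and Hmx1, a homeobox gene of the developing eye and ear, at −1.33 with signals of 340 and 91.1; Hmx1, like Rax, passed the filter only through the wild type array. Sox2, a progenitor factor that works with Pax6 in lens and retina, was at 1.06, from 2304 to 5042, and the photoreceptor factor gene Crx and Tbx2 were at 0.05 and 0.08, with another Tbx2 probe set above the filter at −0.49. The median of −0.62 fell between these groups, midway between Pax6 and Crx, so it rests on a member and describes no group. With no filter the median was 0.03. Mitf, the pigment epithelium factor gene, was below the filter at 214 and 30.9, and Vax1, a gene of the ventral optic stalk, at 50.1 and 288.

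Among the paired-like homeobox genes, the structural relatives of Rax, 5 of the 7 above the filter were higher and 2 lower, with a median of 0.26. Rax was the lowest, followed by Pitx3 at −0.88. Uncx and Pitx1 were past 2-fold in the other direction, at 1.84 (49.96 and 404) and 1.57 (163 and 665). Uncx and Pitx1, with wild type signals below the filter level, passed the filter through the mutant array only, as Rax did through the wild type array.

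Of 9 genes for proteins known to bind or modify Pax6 that passed the filter, 3 were higher and 6 lower. Their median was −0.19, and 48.4% of all genes above the filter were higher. Sox2 was higher, as above, and Tbp, the TATA-binding protein gene, was at −2.04, with a mutant signal of 72.6 below the filter level. Smarcc1, a subunit gene of the BAF chromatin complex, was at −0.73, and Trim11, a ubiquitin ligase gene linked to Pax6 turnover, at −0.19. Sox3 was at −0.02 by its brightest probe set but at −1.16 and −2.12 by the others above the filter.

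Six3 acts with corepressors and represses Wnt genes, and 9 of 11 such genes on the array passed the filter. Sox2 alone was past 2-fold, where 5.05% of all genes were past 2-fold higher and 5.48% past 2-fold lower. Of the 9 genes, 6 were higher, where 48.4% of all genes were, and 3 lower, and the median was 0.09. Wnt1 was at 0.65 (187 and 355), Shh, a ventral patterning signal that Six3 helps to maintain, at 0.40, and the corepressor gene Tle1 at 0.36. Gmnn, whose product geminin binds Six3, was at 0.08.

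Genes linked to Pax6 in eye and pancreas were mostly below the filter: 7 of 22 on the array passed the filter, with a median of −0.57 that moved to 0.02 with no filter. Neurog2, the proneural gene that Pax6 activates in cortex and retina, was at −1.94, with signals of 3489 and 877. Rax was the next lowest, and Aldh3a1, a corneal crystallin gene, was at −1.28, although its mutant signal, 96.3, was below the filter level and its other probe set was at 0.40. Krt12, a corneal keratin gene, was at 1.06, from 213 to 552. Of the pancreatic genes, all below the filter, Gcg, Iapp and Pdx1 had signals between 12.8 and 38.3, Ins2 had 62.1 and 119 by 1 probe set and 5.49 and 26.6 by the other, and Sst had 158 and 135.

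Markers of tissues that could bring eye-field transcripts into the dissection were measured beside these values. Of 21 lens probe sets, 6 passed the filter. The summed signals of all 21 were 3678 (wild type) and 4695 (mutant). Cryaa, the main lens crystallin gene, had signals of 58.5 and 348, and Crygd 44.8 and 87.0 by 1 probe set and 57.2 and 66.4 by the other. By their brightest probe sets the 5 lens genes above the filter were higher, where 48.4% of all genes were, with a median of 0.49 and 0 past 2-fold. Cryab was at 0.97, Crygs at 0.69, Crygb at 0.49, Cryge at 0.44 and Crybb2 at 0.02. Another Cryge probe set above the filter was at −1.34, with signals of 409 and 118, so the direction of that gene is uncertain. Of 27 retina and pigment epithelium probe sets, 6 passed, 3 higher and 3 lower, with a median of −0.05. The summed signals of all 27 were 5399 and 4501. The pigment enzyme gene Tyr had signals of 103 and 33.9. Rlbp1, a retinaldehyde-binding protein gene that cortical progenitors also express, was at −2.26 and made up 1577 of the wild type sum, Pde6a was at 0.71, Dct at −0.57 and Nrl at 0.47. The phototransduction genes Gnat1 (22.5 and 173), Gnat2 (39.4 and 191) and, by 1 of its probe sets, Pde6b (13.1 and 177) were below the filter. Also below it were Pde6g (175 and 103), Sag (122 and 128), Rcvrn (33.2 and 29.5) and the other Pde6b probe set (94.8 and 84.8). These genes thus had no common direction. None of the signals of the defining eye markers Cryaa, Crygd and Tyr was 0, and the part of eye tissue in the Rax and Six3 values was not tested.

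Rax is also a gene of the hypothalamus, and Six3 of the subpallium. Of 11 diencephalic and hypothalamic genes above the filter, 10 were higher and 1 lower in the mutant, where 48.4% of all genes were higher, with a median of 0.40 and summed signals of 9364 and 12204 over 26 probe sets. Trh, which encodes thyrotropin-releasing hormone, was at 2.40 (31.6 and 536), Oxt, the oxytocin gene, at 1.41 and the thalamic factor gene Lhx9 at 1.12, so 3 of 11 were past 2-fold higher, against 5.05% of all genes. Trh and Lhx9 passed the filter only through the mutant array. The hypothalamic markers Otp and Pomc were at 0.61 and 0.27. The lower gene was Nr5a1, at −0.24 by its brightest probe set, which made up 4653 of the wild type sum and 4054 of the mutant sum. Its other probe sets above the filter were at 0.53, 1.27 and −0.26, so the direction of that gene is uncertain. The genes of this list below the filter lay on both sides. Avp was at −0.45, Lhx5 at −0.46, Sst at −0.19 and Hmx3 at −0.02. Rora was at 2.09 and 0.65, from wild type signals of 11.6 and 11.3, and Foxb1 at 1.76, from 22.7. Gbx2 was at 0.53 and Nkx2-2 at 0.02. The part of hypothalamic tissue in the Rax values was not tested. Of 13 subpallial genes above the filter, 9 were higher, 4 of them past 2-fold, and 4 were lower, where 48.4% of all genes were higher and 5.05% past 2-fold, with a median of 0.94 and summed signals of 5473 and 17677 over 32 probe sets. The homeobox genes Dlx1, at 4.59, Dlx2, at 3.99, Dlx5, at 1.96, and Pbx3, at 1.61, were those past 2-fold, and Dlx1 and Dlx5 passed the filter only through the mutant array. Drd2 was at −0.70, Lhx6 at −0.68, Foxp1 at −0.53 and Npy at −0.48. Penk was at 0.94 by its brightest probe set. Another Penk probe set above the filter was at −1.48, with signals of 488 and 129, so the direction of that gene is uncertain. Ikzf1, whose ratio was the median, was at 0.94, and its other probe set, below the filter, at −0.80. Six3, below the filter, was at 1.13 and 0.31. With no filter the subpallial median was 0.15. The part of ventral cells in the Six3 values was not tested.

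The cortical identity of both samples was read from 19 dorsal telencephalic genes, 17 of them above the filter. Tbr1 and Neurod6, markers of cortical glutamatergic neurons, had signals of 5088 and 2405 and of 947 and 471. The regional markers Emx1 and Emx2 were not analysed here. Pax6 stood among 15 lower and 2 higher genes, where 48.4% of all genes were higher. The list had a median of −0.77 and summed signals of 53081 and 32906 over 27 probe sets. Past 2-fold lower were Eomes, at −3.44, Neurog2, Neurod1, at −1.43, Pax6 and Tbr1, at −1.10, and 0 genes were past 2-fold higher, against 5.48% and 5.05% of all genes. Another Eomes probe set above the filter was at −1.39, with signals of 671 and 216. Of the other listed genes that radial glia express, Vim was at −0.60, Fabp7 at −0.44, Hes5 at −0.25 and Nes at 0.17.

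**Figure D5:**
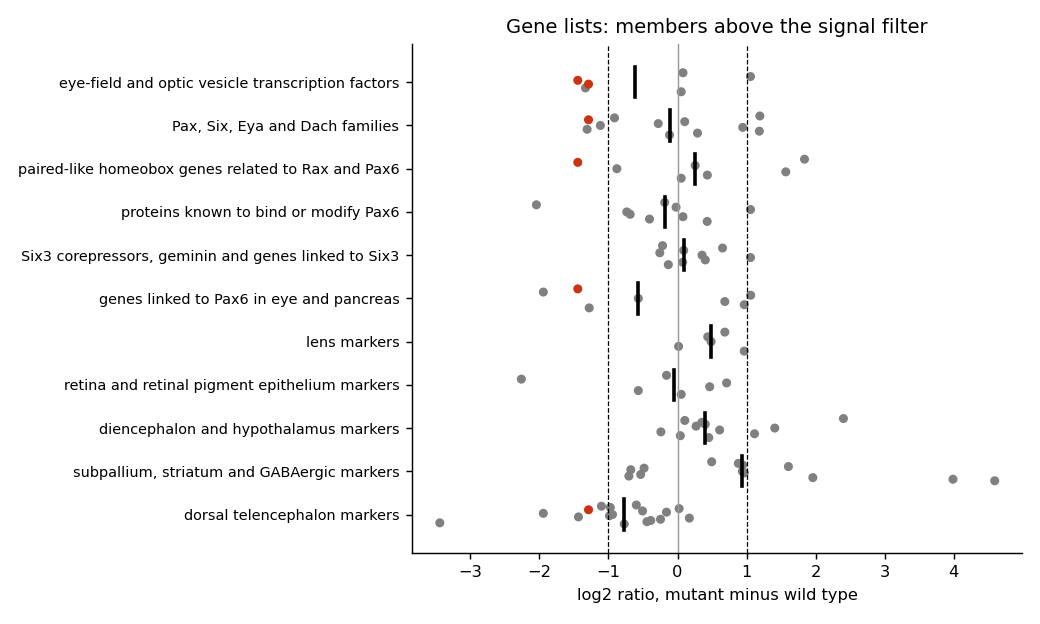
Log2 ratios (mutant minus wild type) of the genes above the signal filter in the 11 lists, 1 point per gene by its brightest probe set; black bars are medians, Pax6 and Rax are red and dashed lines mark 2-fold. The dorsal telencephalic median of −0.77 and the subpallial median of 0.94 lie on opposite sides. The eye-field list holds 3 genes past 2-fold lower, 1 past 2-fold higher and 2 near 0. Of all genes above the filter, 5.48% were past 2-fold lower and 5.05% past 2-fold higher.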

How the data were processed

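The deposited values are MAS5 intensities, 1 per probe set and array; MAS5 is named in the submitters' processing notes, without version, scaling target or detection calls. The 2% trimmed means of the authors' intensities were equal (500.2 on both arrays) while the medians were 237 and 284. Of 12488 probe sets, 10855 had 1 gene symbol in GEO's platform annotation, 396 several and 1237 none; 10839 matched the gene table (GRCm38.p6) by gene ID. Without the 66 control probe sets, 10833 were used. The members, 11 gene lists and alternatives were chosen with earlier results of these data known.

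Signals were converted to log2(signal + 81.5), and log2 ratios (mutant minus wild type) had their median subtracted, taken over probe sets at or above the 40th percentile of the mean log2 value (a signal of about 166), a shift of 0.05. A gene was represented by its brightest probe set, which left 5587 genes. Genes named are the 3 members, list genes past 2-fold, the 3 largest ratios of each list, the Pax-Six-Eya probe sets and the 3 nearest genes by Euclidean distance; others, among them the defining markers, are named as list members chosen after their values were seen. The technical spread came from 894 genes with 2 probe sets above the filter and 372 with both below it. The number of arrays limits the precision. Steps were tested on simulated data. Loess scaling used a fraction of 0.4 and 3 iterations. The software was matplotlib 3.10.9, statsmodels 0.14.6, scipy 1.17.1, pandas 2.3.3, numpy 2.4.6 and Python 3.11.15. Promoter windows came from RefSeq; for Rax no sequence is shown.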

Additional observations from a re-analysis of the deposited data

How the results depend on the processing

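With 1 array per genotype no replicate could be left out. No paired analysis was possible because each genotype has 1 array and no test was made. Pax6 and Rax moved by less than 1 technical spread under all 5 alternatives; Six3 moved to 2.80 and 1.04 (second probe set) with no pseudocount, because the pseudocount exceeds its wild type signals. Probe sets past 2-fold, 352 higher and 374 lower as reported, were 568 higher with no pseudocount, 112 and 147 with the 50th-percentile pseudocount, 686 and 678 with no filter, 112 and 132 with the 60th-percentile filter, 960 and 984 at 1.5-fold and 71 and 81 at 3-fold. List medians were recomputed 88 times, and 75 of these values stayed within the technical spread over all genes divided by the square root of the list's size. The eye-field median was −0.39 with the larger pseudocount, 0.032 with no filter and −1.29, the Pax6 value, without suffixed probe sets, which drops Sox2. That of genes linked to Pax6 in eye and pancreas was −0.026, 0.018 and −0.92 in these settings. The subpallial median was 1.17 with no pseudocount, 0.66 with the larger one and 0.15 with no filter, and the dorsal telencephalic one −0.59 with the larger pseudocount. The Pax-Six-Eya-Dach median was 0.10 with probe sets averaged, and that of Pax6 partners −0.41 with probe sets averaged and −0.55 without suffixed ones. For the other shifts the cause was not tested. The mean of both Six3 probe sets was added after seeing the data.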
